A study of Homo sapiens with 12 samples.

Results

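The RNA of 9 noncoding host genes of small nucleolar RNAs (snoRNAs) was examined in SHI-1 cells exposed to disulfiram with copper, to niclosamide, or to both. The genes were chosen by name as noncoding hosts whose spliced RNA is known to be degraded while translation runs. Earlier results of these data were known when the list was made. The genes are GAS5, ZFAS1, SNHG1, SNHG5, SNHG7, SNHG8, SNHG12, SNHG15 and SNHG16. All 9 were among the 14866 genes listed, and all 9 passed the filter on low values (3 or more libraries with a value of 10 or higher), as did 13502 genes in all.

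SHI-1 is a human acute myeloid leukemia cell line that carries the MLL-AF6 fusion gene. Cells were exposed for 16 h to DMSO, the vehicle (DMSO), to 0.3 µM disulfiram with 1 µM copper (DSF), to 5 µM niclosamide (NSM), or to both treatments at these doses (DSF+NSM), with 3 libraries per group from separate experiments. Whether copper was also added to DMSO and NSM cultures is not given in the sources used here. A single cell line in culture was the only model, and polyadenylated RNA was sequenced as paired short reads.

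A snoRNA host gene is transcribed and spliced like a messenger RNA, and the snoRNAs are trimmed out of its introns. The snoRNAs of the C/D box class guide methylation, and those of the H/ACA box class guide pseudouridylation, mostly of ribosomal RNA. The spliced exons left behind have only short open reading frames; ribosomes engage them, stop early, and nonsense-mediated decay (NMD), a surveillance pathway that acts on translated RNA, removes them, so the spliced RNA of hosts such as GAS5 is known to accumulate when translation is blocked. Many hosts also belong to the 5′ terminal oligopyrimidine (TOP) class, whose RNA begins with a C followed by a run of pyrimidines, as ribosomal protein mRNAs do.

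The 9 hosts held 35 annotated snoRNAs, 27 of the C/D class and 8 of the H/ACA class, by RefSeq positions on GRCh38. Measured against the GENCODE canonical transcript of each host, 33 of the 35 lay in introns, while SNORA103 in GAS5 and SNORA9 in SNHG15 overlapped an exon. GAS5 (chr1:173863901-173869045, minus strand) held 11 snoRNAs, SNHG1 (chr11:62851978-62855885, minus strand) held 8, and SNHG12 (chr1:28578538-28582983, minus strand) held 4. ZFAS1 (chr20:49278178-49289260, plus strand) and SNHG16 (chr17:76557764-76565348, plus strand) held 3 each. SNHG5 (chr6:85677007-85678733, minus strand) and SNHG7 (chr9:136724594-136728184, minus strand) held 2 each. SNHG8 (chr4:118278762-118279823, plus strand) and SNHG15 (chr7:44983023-44986696, minus strand) held 1 each.

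The bases around the annotated starts are shown because the TOP class is defined by its first bases. Each line gives 30 bases before and 30 bases from the start of 1 RefSeq transcript of the gene, on its strand, on GRCh38. For ZFAS1 and SNHG12 that start lies inside the gene span given above, downstream of its outer end and, for SNHG12, of the GENCODE canonical start too. For GAS5, whose RefSeq start lies upstream of the canonical one, a second line gives the GENCODE canonical start, read from the GRCh38 genome. Capitals mark a C followed by at least 4 pyrimidines whose first C lies within 5 bases of the start, searched on the strand of the gene only.
GAS5, RefSeq start (chr1:173869016-173869075): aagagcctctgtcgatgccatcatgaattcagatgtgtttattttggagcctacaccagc
GAS5, canonical start (chr1:173867960-173868019): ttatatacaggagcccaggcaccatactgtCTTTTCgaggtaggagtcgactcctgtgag
ZFAS1 (chr20:49278612-49278671): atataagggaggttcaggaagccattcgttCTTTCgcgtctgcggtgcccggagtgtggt
SNHG1 (chr11:62855856-62855915): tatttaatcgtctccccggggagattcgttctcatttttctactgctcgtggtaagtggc
SNHG5 (chr6:85678704-85678763): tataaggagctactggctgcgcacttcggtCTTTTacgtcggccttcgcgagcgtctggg
SNHG7 (chr9:136728155-136728214): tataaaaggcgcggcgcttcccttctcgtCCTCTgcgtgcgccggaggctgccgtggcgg
SNHG8 (chr4:118278732-118278791): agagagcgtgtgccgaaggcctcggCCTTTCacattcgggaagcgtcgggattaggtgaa
SNHG12 (chr1:28581844-28581903): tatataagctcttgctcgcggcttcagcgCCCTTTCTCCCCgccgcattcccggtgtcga
SNHG16 (chr17:76557734-76557793): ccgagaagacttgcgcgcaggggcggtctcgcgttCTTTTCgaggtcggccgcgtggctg

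At these RefSeq transcript starts, 6 of the 8 hosts with a sequence held such a tract (ZFAS1, SNHG5, SNHG7, SNHG8, SNHG12 and SNHG16), against 29.6% of the 9545 tested genes with a sequence. The definition was changed once after letters and values had been seen. The first one used GENCODE canonical starts and 10 bases on either side, and found the tract in 7 of 9 hosts (GAS5, ZFAS1, SNHG1, SNHG7, SNHG8, SNHG12 and SNHG16) and in 33.5% of 11712 genes. Of the 9 hosts only SNHG15 and SNHG16 were not called in NSM or DSF+NSM against DMSO, too few to show whether the tract goes with a change. SNHG16 held it under both definitions, and SNHG15, at its canonical start, did not hold it. The 3 hosts for which the definitions differed, GAS5, SNHG1 and SNHG5, were called in both of these comparisons. Over all tested genes with a RefSeq start, the median log2 fold change in NSM against DMSO was 0.17 with the tract and -0.03 without it. Among 43 protein-coding snoRNA hosts it was 0.45 with the tract (27 genes) and -0.46 without it (16 genes). Their medians in DSF+NSM were 0.90 and -0.73, where those of all genes were 0.10 and -0.04. For 8 other noncoding hosts the NSM medians were -0.42 with the tract and -0.12 without it. In DSF+NSM the order of these hosts was the other way, at 0.009 with the tract and -0.30 without it. None of these differences was tested.

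The deposited normalized counts had library sums, in units of 1000000, of 14.0 to 14.4 in DMSO and 14.9 to 15.3 in DSF, of 16.5 to 17.5 in NSM and of 22.7 to 25.6 in the combination, and the estimated number of reads per library in the same unit was 10.2 to 19.0. NSM replicate 3 stood apart, with a Spearman correlation across genes of 0.939 with NSM replicate 1 and 0.950 with NSM replicate 2, where every other pair of libraries in a group reached at least 0.980; hosts and snoRNAs that lost or gained a call without it are given both ways. All 10 myeloid markers examined passed the filter on low values, and their summed level was 67603 to 76962 in DMSO, 47919 to 54003 in DSF, 37649 to 40760 in NSM and 35655 to 37267 in DSF+NSM. Most of this sum was MPO, the myeloperoxidase of granules, at 54162 to 62640 in DMSO, 29316 to 36629 in DSF, 14454 to 18630 in NSM and 19671 to 22044 in DSF+NSM; the other 9 markers summed to 13441 to 14322, 17373 to 18633, 20286 to 23195 and 13621 to 17596 in the same order. Of the 10 markers 3 were called higher and 1 lower in DSF, 5 and 4 in NSM, and 3 and 2 in DSF+NSM. They thus did not move as one class with the values as deposited. The shares of all tested genes were 11.9% and 5.95%, 25.4% and 23.7%, and 28.3% and 24.5%. With the libraries scaled to equal sums 4 were higher and 5 lower in NSM. In DSF+NSM none was then higher and 7 were lower (median log2 fold change -0.86), where 11.4% of all genes were called higher and 56.2% lower. Of 10 markers of other lineages 7 were listed, and their sum, mostly PECAM1, which myeloid cells also make, ran from 690 to 1501 over the 12 libraries; MS4A1 was at 0 in all 12 libraries, CD3D was below 10 in all 3 DMSO libraries, and CD3E had a mean of 71.9 ± 3.93 (SD, n = 3) in DMSO and 164 ± 28.6 in DSF+NSM. The part of these differences in the results was not tested, and in bulk RNA fewer cells of a type and less RNA per cell cannot be told apart.

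Most of the hosts were higher with niclosamide. In NSM against DMSO 7 of 9 rose and none fell (limma on log2(normalized count + 1), Benjamini-Hochberg adjusted p under 0.05 over 13502 genes), where 25.4% of all tested genes were called higher and 23.7% lower. Since the list was made with earlier results known, such counts describe it and are not an independent test. The median log2 fold change of the 9 hosts was 1.20, against 0.01 over all genes tested. In DSF+NSM against DMSO the same 7 hosts rose and none fell, with a median of 1.82 against 0.03, where 28.3% of genes were called higher and 24.5% lower. The 9 hosts together took 0.0956% ± 0.00916 (SD, n = 3) of the normalized counts in DMSO and 0.0926% ± 0.00207 in DSF. With niclosamide they took 0.187% ± 0.0299 alone and 0.169% ± 0.00523 in the combination. With the libraries scaled to equal sums, the median of all genes moved to -0.25 in NSM and -0.74 in DSF+NSM, and 2218 genes were called higher and 4510 lower in NSM, in place of 3430 and 3205; in DSF+NSM 1534 were called higher and 7582 lower, in place of 3816 and 3309. These are 16.4% and 33.4% of all tested genes in NSM, and 11.4% and 56.2% in DSF+NSM. Under that scaling 7 hosts were still called higher in each of these comparisons and SNHG16 was called lower in DSF+NSM, and the host medians were 0.93 in NSM and 1.04 in DSF+NSM. The 7 then ran in NSM from 0.78 for SNHG7 to 1.76 for SNHG12. In DSF+NSM GAS5 was at 1.06, ZFAS1 at 1.24, SNHG1 at 0.98, SNHG5 at 1.04, SNHG7 at 1.07, SNHG8 at 0.85 and SNHG12 at 1.93, each under its value as deposited, so the size of the rise in the combination depended on the scaling.

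**Figure D1:**
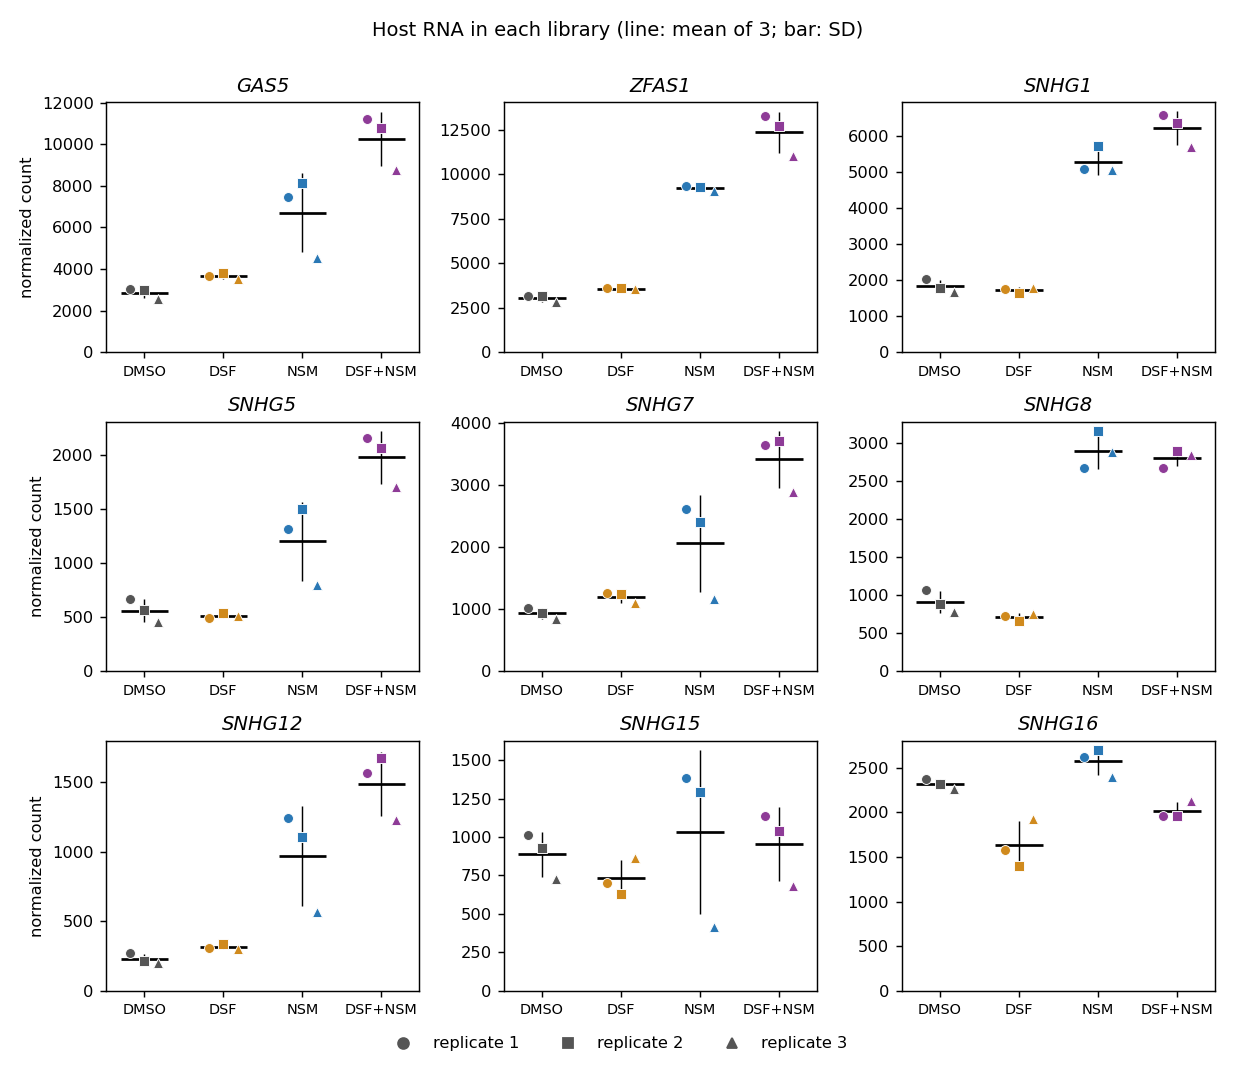
Normalized count of each host (vertical axis of each panel, linear from 0) in the 12 libraries by group; symbols are replicates 1 to 3, lines are means of 3 libraries and bars are SDs. For GAS5, SNHG5, SNHG7, SNHG12 and SNHG15 the third NSM library (triangle) lies well under the other two, whereas for ZFAS1 the 3 NSM libraries lie between 9054 and 9326.

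Among the hosts that hold only or mostly C/D snoRNAs, GAS5, a growth arrest-specific transcript, had 3013, 2979 and 2541 normalized counts in the DMSO libraries and 3646, 3782 and 3504 in the DSF libraries. It had 7440, 8136 and 4532 in NSM and 11217, 10782 and 8773 in DSF+NSM. With the values as deposited the 4 groups did not overlap, and each library of DSF+NSM lay above each library of NSM. With the libraries scaled to equal sums, DSF+NSM exceeded NSM by 0.14 on the log2 scale and was not called (limma adjusted p = 0.563). GAS5 rose 2.29-fold in NSM (log2 fold change 1.20 ± 0.19 SE, limma adjusted p = 0.000261) and 3.60-fold in DSF+NSM (1.85 ± 0.19, limma adjusted p = 6.61e-06). Without NSM replicate 3 the NSM value was 1.46.

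ZFAS1, first described as the antisense partner of the zinc finger gene ZNFX1, had 3168, 3147 and 2815 normalized counts in DMSO and 3587, 3602 and 3536 in DSF. In NSM it had 9326, 9267 and 9054, and in DSF+NSM 13281, 12754 and 11059. The NSM libraries were close to one another, with an SD of 143 around a mean of 9216, and as deposited again no 2 groups overlapped. With equal sums the log2 difference of DSF+NSM from NSM was -0.09 and was not called (limma adjusted p = 0.410). ZFAS1 rose 3.03-fold in NSM (log2 fold change 1.60 ± 0.10 SE, limma adjusted p = 3.34e-07) and 4.06-fold in DSF+NSM (2.02 ± 0.10, limma adjusted p = 2.28e-08).

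SNHG1, the host of a cluster of C/D snoRNAs, had 2028, 1791 and 1674 normalized counts in DMSO, 1750, 1648 and 1795 in DSF, 5078, 5729 and 5065 in NSM, and 6599, 6370 and 5710 in DSF+NSM. The DMSO and DSF libraries overlapped, whereas every library with niclosamide lay above both groups. Its log2 fold change was 1.53 ± 0.11 (SE) in NSM (limma adjusted p = 9.24e-07) and 1.77 ± 0.11 in DSF+NSM (limma adjusted p = 1.36e-07).

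SNHG5, the host of SNORD50A and SNORD50B, had 669, 564 and 453 normalized counts in DMSO, 492, 538 and 515 in DSF, 1313, 1503 and 798 in NSM, and 2160, 2069 and 1703 in DSF+NSM. As deposited, every NSM library lay above the DMSO and DSF libraries and under every DSF+NSM library. With equal sums the log2 difference of DSF+NSM from NSM was 0.24 for SNHG5 and was not called (limma adjusted p = 0.373). Its log2 fold change was 1.07 ± 0.22 (SE) in NSM (limma adjusted p = 0.00156; 1.34 without NSM replicate 3) and 1.82 ± 0.22 in DSF+NSM (limma adjusted p = 2.24e-05).

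The hosts of H/ACA snoRNAs divided in the same manner. SNHG7, the host of SNORA17A and SNORA17B, had 1021, 946 and 845 normalized counts in DMSO, 1255, 1237 and 1093 in DSF, 2610, 2404 and 1165 in NSM, and 3642, 3699 and 2886 in DSF+NSM. NSM replicate 3 fell within the range of the DSF libraries but above all DMSO libraries. The log2 fold change was 1.05 ± 0.25 (SE) in NSM (limma adjusted p = 0.00369; 1.42 without NSM replicate 3) and 1.86 ± 0.25 in DSF+NSM (limma adjusted p = 5.14e-05).

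SNHG8, the host of SNORA24, had 1066, 885 and 776 normalized counts in DMSO, 722, 665 and 759 in DSF, 2662, 3151 and 2874 in NSM, and 2674, 2889 and 2835 in DSF+NSM. With the values as deposited SNHG8 was high to a like degree in both groups with niclosamide. The log2 fold change was 1.68 ± 0.13 (SE) in NSM (limma adjusted p = 1.48e-06) and 1.63 ± 0.13 in DSF+NSM (limma adjusted p = 9.80e-07). The difference between those groups was -0.05 with a 95% interval of -0.33 to 0.24 (limma adjusted p = 0.810). With the libraries scaled to equal sums this difference was -0.56 and was called lower (limma adjusted p = 0.00642).

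SNHG12, which holds both classes of snoRNA, had 271, 212 and 198 normalized counts in DMSO. It had 305, 334 and 304 in DSF, 1241, 1109 and 565 in NSM, and 1565, 1674 and 1230 in DSF+NSM. The DMSO libraries lay under all others. The fold change of SNHG12 was the largest of the 9 in both comparisons, 4.07-fold in NSM (log2 2.03 ± 0.25 SE, limma adjusted p = 4.72e-05; 2.38 without NSM replicate 3) and 6.54-fold in DSF+NSM (2.71 ± 0.25, limma adjusted p = 3.30e-06).

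SNHG15 and SNHG16 were the exceptions. SNHG15, the host of SNORA9, had 1010, 928 and 725 normalized counts in DMSO, 703, 630 and 866 in DSF, 1385, 1293 and 417 in NSM, and 1140, 1036 and 682 in DSF+NSM. The NSM group held both the highest and the lowest of the 12 values, and the groups overlapped. The log2 fold change in NSM was 0.05 with a 95% interval of -0.77 to 0.86 (limma adjusted p = 0.931). Without NSM replicate 3 it was 0.61 and was called (limma adjusted p = 0.0189), so the call for SNHG15 rested on that library. In DSF+NSM the log2 fold change was 0.08, with an interval of -0.74 to 0.90 (limma adjusted p = 0.870).

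SNHG16, the host of SNORD1A, SNORD1B and SNORD1C, had 2378, 2317 and 2265 normalized counts in DMSO, 1574, 1397 and 1927 in DSF, 2621, 2701 and 2398 in NSM, and 1960, 1961 and 2133 in DSF+NSM. Both groups given disulfiram lay under DMSO in every library, and every NSM library lay above DMSO. The log2 fold change in NSM was 0.15 with a 95% interval of -0.13 to 0.42 (limma adjusted p = 0.351), whose upper end lies below the values of the 7 hosts that rose. It was -0.20 in DSF+NSM, with an interval of -0.47 to 0.07 (limma adjusted p = 0.197); with the libraries scaled to equal sums this became -0.99 and was called lower (limma adjusted p = 4.91e-05).

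**Figure D2:**
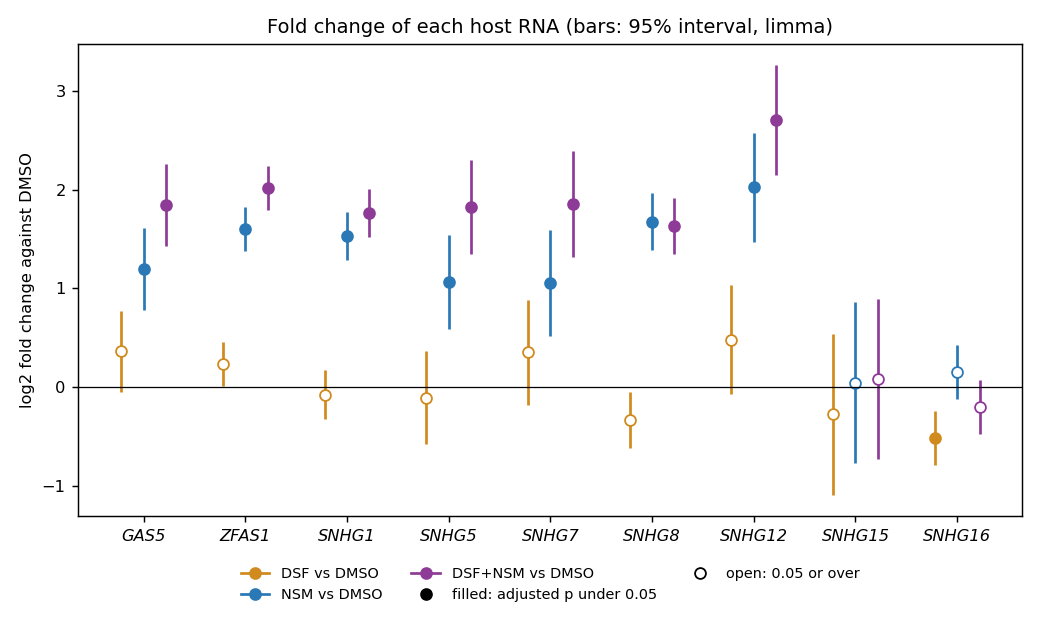
Log2 fold change of each host against DMSO (vertical axis) for DSF, NSM and DSF+NSM; points are limma estimates over 3 libraries a group, bars are 95% intervals, and filled points have an adjusted p under 0.05. In NSM and in DSF+NSM 7 of 9 points are filled and above 0, and in DSF the filled point is SNHG16, at -0.52.

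Disulfiram with copper moved the hosts much less. In DSF against DMSO none of the 9 rose and 1 fell, where 11.9% of all tested genes were called higher and 5.95% lower; 3 of the 9 had an unadjusted p under 0.05, as did 32.7% of all tested genes. The host called was SNHG16, which fell by 0.52 on the log2 scale (SE 0.13, limma adjusted p = 0.0151). The values of the others ran from -0.34 for SNHG8 to 0.48 for SNHG12, with a median over the 9 of -0.08 against 0.05 for all genes. The 3 DSF libraries nevertheless lay above all 3 DMSO libraries for 4 hosts, GAS5, ZFAS1, SNHG7 and SNHG12, and under them for 2, SNHG8 and SNHG16; of all tested genes 33.4% lay above and 27.6% below in this way. These 6 were the ones called when only the DSF and DMSO libraries were fitted (limma adjusted p = 0.000512 for GAS5, 0.00624 for ZFAS1, 0.00186 for SNHG7, 0.00295 for SNHG12, 0.0101 for SNHG8 and 0.000310 for SNHG16), a fit that called 29.5% of all genes higher and 24.4% lower. The same 6 were called when NSM replicate 3 was left out of the fit of all groups, which called 23.5% higher and 17.6% lower. Without DMSO replicate 1 or 2, or without DSF replicate 1 or 2, none was called. The count for disulfiram thus ran from 0 to 6 with the estimate of the spread, while the fold changes of the 4 hosts that lay above DMSO were between 1.18 and 1.39.

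The hosts were compared directly between the single treatments and the combination. Niclosamide exceeded disulfiram for 8 of 9 hosts and none was lower (NSM against DSF, 21.0% of genes called higher and 23.4% lower), with a median log2 difference of 1.18. SNHG16 was among the 8, at 0.67 (limma adjusted p = 0.00129), and SNHG15 was the exception, at 0.32 (limma adjusted p = 0.509). With NSM replicate 3 left out SNHG15 was at 0.88 and was called (limma adjusted p = 0.00250), so that all 9 hosts were higher, where 25.9% of genes were called higher and 26.3% lower. With equal sums SNHG7 lost its call (0.53, limma adjusted p = 0.0975). DSF+NSM exceeded DSF for 7 of 9 hosts and none was lower (21.7% of genes called higher and 21.4% lower), with log2 differences from 1.49 for GAS5 to 2.23 for SNHG12 among the 7; SNHG16 had 0.32 (limma adjusted p = 0.0586; 0.0140 without NSM replicate 3) and SNHG15 0.36 (limma adjusted p = 0.474). With equal sums the 7 were still called, at 0.80 for GAS5 to 1.54 for SNHG12, and SNHG16 turned to -0.37 and was called lower (limma adjusted p = 0.0348), where 7.30% of genes were called higher and 53.8% lower.

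Against niclosamide alone, the combination was higher for 4 hosts and lower for 1, where 20.3% of genes were called higher and 18.3% lower. The 4 were GAS5 (log2 difference 0.65, limma adjusted p = 0.0172), ZFAS1 (0.42, limma adjusted p = 0.00679), SNHG5 (0.76, limma adjusted p = 0.0162) and SNHG7 (0.80, limma adjusted p = 0.0218), and the DSF+NSM libraries did not overlap the NSM libraries for any of them, as was so for 22.2% of all tested genes in this direction. SNHG12 had 0.68 (limma adjusted p = 0.0507) and SNHG1 0.23 (limma adjusted p = 0.119). SNHG16 was lower, at -0.35 (limma adjusted p = 0.0438). Without NSM replicate 3 the log2 differences shrank to 0.39 for GAS5, 0.49 for SNHG5 and 0.44 for SNHG7 and was 0.41 for ZFAS1, all still called, and SNHG15 was called lower, at -0.52 (limma adjusted p = 0.0449), where 24.7% of genes were called higher and 24.4% lower. This comparison depended on the scaling: with the libraries set to equal sums no host was called higher and 2 were called lower, SNHG8 at -0.56 and SNHG16 at -0.86, ZFAS1 was at -0.09 and SNHG1 at -0.28, and the median of all genes was -0.48, with 9.82% of genes called higher and 44.9% lower. When only the NSM and DSF+NSM libraries were fitted, none of the 9 was called, where 10.9% of genes were called higher and 7.47% lower.

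Whether the combination differed from the sum of both single changes was tested as an interaction. None of the 9 hosts was called (limma), 1 had an unadjusted p under 0.05, and 12.1% of genes were called higher and 14.0% lower. All 9 values were positive, from 0.17 for SNHG16 to 0.87 for SNHG5, with a median of 0.29 against 0.01 for all genes. SNHG5 was nearest to the threshold, with a 95% interval of 0.20 to 1.54 (limma adjusted p = 0.0564), and without NSM replicate 3 it was 0.59 and was called (limma adjusted p = 0.0227). The other 8 intervals included 0. SNHG12, without NSM replicate 3, was at -0.15 and SNHG15 at -0.25, and the median of the hosts was 0.12. With the libraries scaled to equal sums the median of the hosts was -0.13 and that of all genes -0.40, so the sign of most host values depended on the scaling. SNHG5 (0.45) and SNHG7 (0.03) stayed positive with equal sums. All 9 hosts lay above the median of all genes under both scalings.

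Of the 35 snoRNAs within the hosts, 33 were not listed in these poly(A) libraries and 2 were, SNORD22 within SNHG1 and SNORA61 within SNHG12. Their RefSeq spans, read from GRCh38 on the strand of the host, are shown because these are the snoRNAs that can be set beside their hosts. Capitals mark the last CTGA, the letters of the D box, in SNORD22, in which the letters TGATGA of the C box were not found, and the last ACA in SNORA61.
SNORD22 (chr11:62852910-62853035): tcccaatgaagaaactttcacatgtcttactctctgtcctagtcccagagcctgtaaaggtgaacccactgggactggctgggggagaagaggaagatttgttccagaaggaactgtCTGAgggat
SNORA61 (chr1:28579764-28579893): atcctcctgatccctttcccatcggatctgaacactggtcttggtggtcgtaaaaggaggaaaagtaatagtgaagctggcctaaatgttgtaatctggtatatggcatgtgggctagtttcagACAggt

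SNORD22 was highest in DSF+NSM, whereas its host was high to a like degree in both groups with niclosamide. SNORD22 had 54.8, 32.5 and 31.4 normalized counts in DMSO and 74.0, 88.6 and 62.2 in DSF. In NSM, where SNHG1 rose in all 3 libraries, SNORD22 had 165, 176 and 8.95, and in DSF+NSM it had 1505, 1354 and 562. It rose in DSF+NSM against DMSO (log2 fold change 4.74 ± 0.85 SE, limma adjusted p = 0.000520) and against NSM (3.98, limma adjusted p = 0.00305), whereas the NSM change against DMSO was 0.76 (limma adjusted p = 0.482). That change rested on NSM replicate 3, the lowest of the 12 values: without it SNORD22 was called higher in NSM (2.13, limma adjusted p = 0.000204) and in DSF (0.94 in both fits, limma adjusted p = 0.0336 in place of 0.485), and DSF+NSM exceeded NSM by 2.61 (limma adjusted p = 6.21e-05). The interaction for SNORD22 was 3.04 (limma adjusted p = 0.0809), and 1.67 without that library (limma adjusted p = 0.0124). SNHG1 differed by 0.23 between NSM and DSF+NSM. A read in the span of SNORD22 can come from the snoRNA or from unspliced SNHG1, and these values cannot tell them apart.

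SNORA61 had 15.0, 17.4 and 15.7 normalized counts in DMSO, 19.7, 8.96 and 10.9 in DSF, 5.89, 10.7 and 2.56 in NSM, and 26.3, 34.0 and 8.88 in DSF+NSM. The NSM libraries lay under the DMSO libraries while those of the host SNHG12 lay above. The log2 fold change of SNORA61 was -1.37 ± 0.54 (SE) in NSM (limma adjusted p = 0.0510), and it was higher in DSF+NSM than in NSM by 1.68 (limma adjusted p = 0.0264); with equal sums the first was called lower, at -1.63 (limma adjusted p = 0.0219), and the second was not called (1.20, limma adjusted p = 0.0712). Neither was called without NSM replicate 3, at -0.92 (limma adjusted p = 0.141) and 1.24 (limma adjusted p = 0.0626). At such low levels these values carry large counting error.

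**Figure D3:**
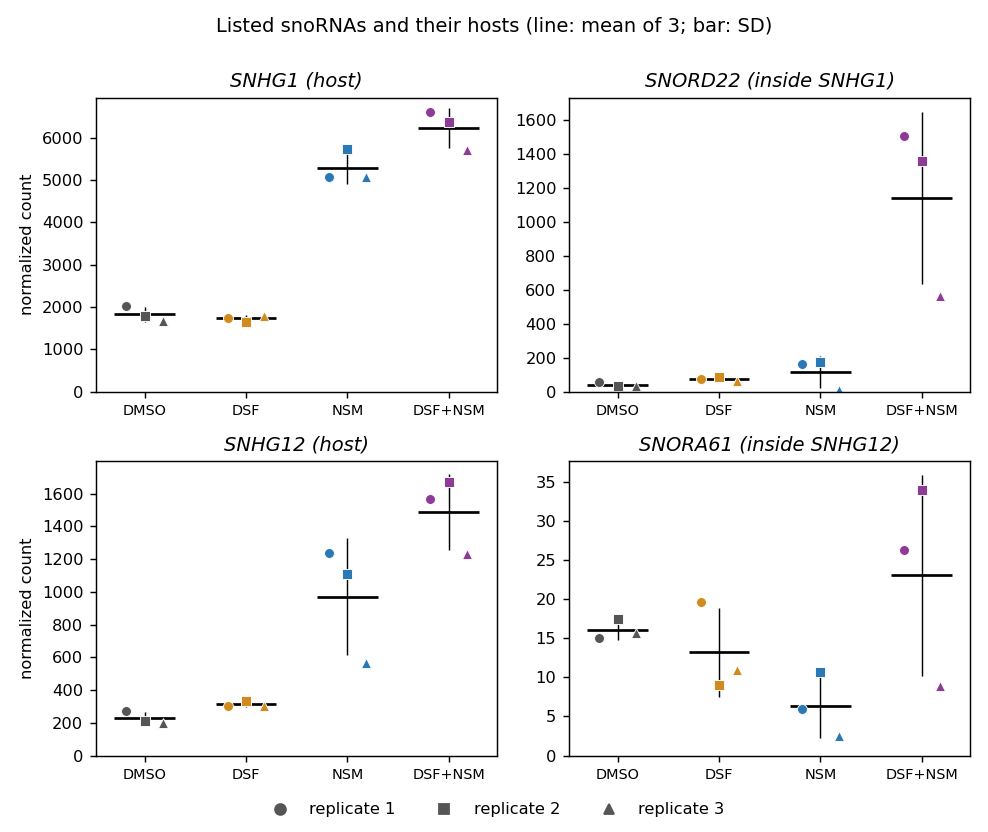
Normalized counts (vertical axes, linear from 0) of SNHG1 and SNHG12 on the left and of the listed snoRNA within each on the right, in the 12 libraries by group; symbols are replicates, lines are means of 3 and bars are SDs. SNHG1 is high in both groups with niclosamide, whereas SNORD22 is highest in DSF+NSM, at 562 to 1505.

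Neighbouring genes can share reads with a host, since the library kit does not mark the strand. ZNFX1, which shares 249 exon bases with ZFAS1 on the other strand, was not called in any of the 3 comparisons with DMSO (log2 fold changes 0.30, 0.12 and 0.04 in DSF, NSM and DSF+NSM).

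SLC3A2, which encodes the heavy chain of an amino acid transporter and starts 51 bases from SNHG1 in the other direction, rose in all 3 treatments. It had 1975, 1937 and 1952 normalized counts in DMSO, 4148, 4895 and 3864 in DSF, 8750, 7396 and 3980 in NSM, and 6059, 6173 and 6361 in DSF+NSM. The log2 fold change of SLC3A2 was 1.13 in DSF (limma adjusted p = 0.00502), 1.70 in NSM and 1.66 in DSF+NSM, where that of SNHG1 in DSF was -0.08. ZBTB37, whose annotated start is 800 bases from that of GAS5, was called in DSF+NSM (1.53, limma adjusted p = 0.00301) from a DMSO mean of 22.5, but not with equal sums (0.76, limma adjusted p = 0.0573). TRNAU1AP, which shares 8 exon bases with SNHG12, and PRSS12, which shares 2487 with SNHG8 in the GENCODE annotation, were not called against DMSO.

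Other snoRNA hosts did not move as one group. Of all tested genes 25.4% were called higher and 23.7% lower in NSM, and 28.3% and 24.5% in DSF+NSM. Of 12 other noncoding hosts tested, 5 rose and 4 fell in NSM, with a median log2 fold change of 0.08. In DSF+NSM 6 rose and 1 fell, with a median of 0.60. EPB41L4A-AS1 rose by 2.23 in NSM and 2.50 in DSF+NSM, C6orf48, also named SNHG32, rose by 1.71 and 2.03, and SNHG19 had -0.06 in NSM and rose by 1.21 in DSF+NSM. With equal sums the medians were -0.19 and -0.18, with 3 higher and 4 lower in NSM and 3 higher and 5 lower in DSF+NSM, and SNHG19 was not called (0.43, limma adjusted p = 0.315). For these 12 hosts the NSM median was 0.47 without NSM replicate 3. In that fit 7 of them rose and 3 fell in DSF+NSM, where 4759 of 13502 genes were called higher and 4378 lower. Of 57 protein-coding hosts, 28 rose and 11 fell in NSM (median 0.40), and 34 rose and 12 fell in DSF+NSM (median 0.78). The 3 named from them by size were HSPA8, a constitutive chaperone, at -0.41 in NSM (limma adjusted p = 0.103) and 2.34 in DSF+NSM, EIF4G1, a scaffold of translation initiation, which fell by 1.61 and 1.83, and PPAN, a ribosome assembly factor, which fell by 1.47 and 1.78. With equal sums 17 of the 57 were higher and 16 lower in NSM (median 0.13), and 10 higher and 24 lower in DSF+NSM (median -0.00438). That scaling called 16.4% of all tested genes higher and 33.4% lower in NSM, and 11.4% and 56.2% in DSF+NSM. With it HSPA8 was called lower in NSM (-0.68, limma adjusted p = 0.00891), as it was without NSM replicate 3 (-0.72, limma adjusted p = 1.49e-05).

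Most mRNAs known as NMD targets were higher with either drug. Of 12 tested, 9 rose and none fell in DSF, 10 rose and none fell in NSM, and 10 rose and none fell in DSF+NSM, with medians of 1.68, 1.66 and 3.01. Among all tested genes 11.9% were called higher and 5.95% lower in DSF. The shares were 25.4% and 23.7% in NSM and 28.3% and 24.5% in DSF+NSM. These mRNAs include stress response genes: PPP1R15A, a phosphatase subunit that acts on eIF2α, rose by 3.14, 4.58 and 6.10 in DSF, NSM and DSF+NSM, and ATF3, a stress-induced transcription factor, rose by 2.77, 2.85 and 5.85. GADD45B, a stress sensor gene, rose by 1.41 in DSF and 5.57 in DSF+NSM and had -0.38 in NSM (limma adjusted p = 0.285). With equal sums 16.4% of all tested genes were called higher and 33.4% lower in NSM, and 11.4% and 56.2% in DSF+NSM. Under that scaling 9 of the NMD target mRNAs were still called higher in NSM and 10 in DSF+NSM. The other 2, TBL2 at -0.78 and NAT9 at -0.76, were called lower in DSF+NSM. In DSF, in which 9 of the NMD target mRNAs rose, none of the 9 noncoding hosts was called higher in the fit of all 12 libraries. Whether the NMD target mRNAs rose through more synthesis or slower decay was not tested.

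Factors of the NMD pathway went both ways in NSM, as all tested genes did. Of 16 tested, 5 rose and 3 fell in NSM (median -0.05), and 4 rose and none fell in DSF+NSM (median 0.28). Of all tested genes 25.4% were called higher and 23.7% lower in NSM, and 28.3% and 24.5% in DSF+NSM. UPF3B, an exon junction component of the pathway, rose by 0.84 in NSM (0.54 without NSM replicate 3) and 0.99 in DSF+NSM. SMG6, the endonuclease, had 0.24 in NSM and rose by 0.89 in DSF+NSM, and EIF4A3, the helicase core of the exon junction complex, fell by 1.30 in NSM and rose by 0.85 in DSF+NSM. With equal sums none of the 16 was higher and 9 were lower in DSF+NSM (median -0.50). The direction for these factors thus depended on the scaling. That scaling called 11.4% of all tested genes higher and 56.2% lower in DSF+NSM (median -0.74). Without NSM replicate 3, 8 of the 16 were higher and 2 lower in DSF+NSM. That fit called 4759 of 13502 genes higher and 4378 lower. Among proteins that bind or assemble snoRNAs more fell than rose: of 18 tested, 1 rose and 11 fell in NSM (median -0.70), and none rose and 9 fell in DSF+NSM (median -0.46). Among them GAR1, an H/ACA core protein, fell by 1.09 and 1.51, NOLC1, a nucleolar chaperone, fell by 1.74 and 1.49, and DKC1, the pseudouridine synthase, fell by 0.68 and 1.14 in NSM and DSF+NSM. With equal sums 15 were lower in NSM, where 33.4% of all tested genes were, and 17 in DSF+NSM, where 56.2% were. Without NSM replicate 3, 2 rose and 12 fell in NSM and 4 rose and 9 fell in DSF+NSM. In NSM that fit called 4211 of 13502 genes higher and 3864 lower.

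**Figure D4:**
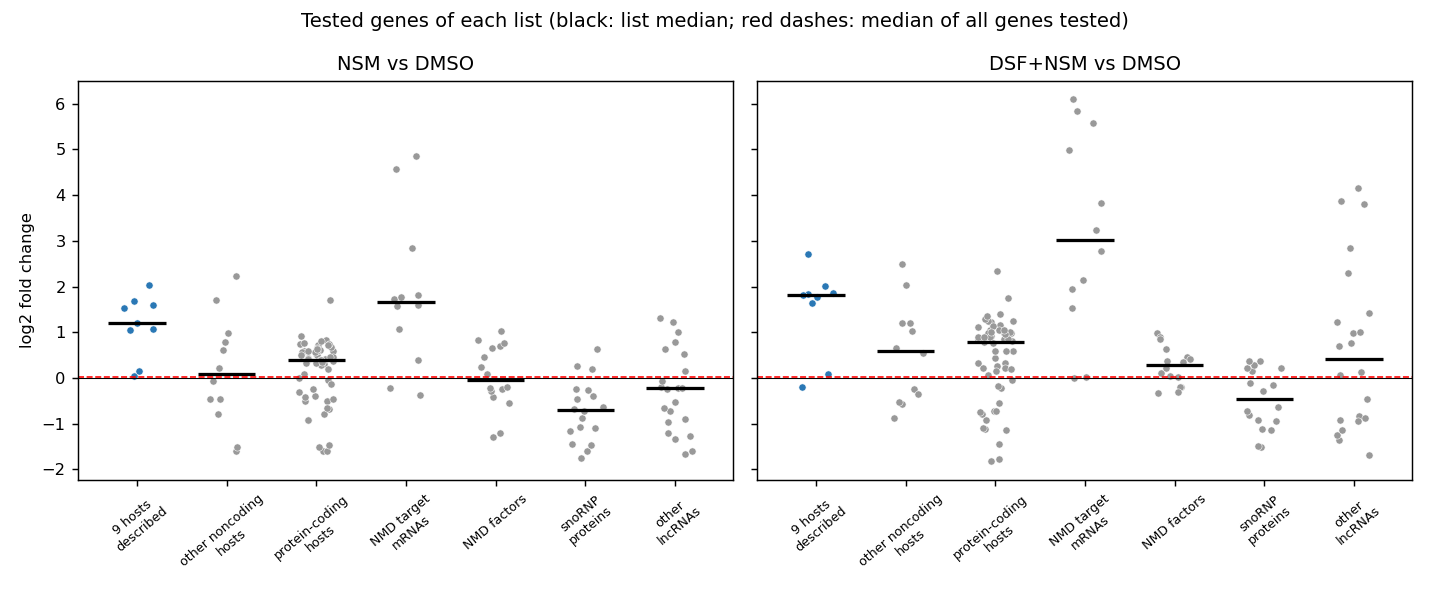
Log2 fold change (vertical axis) of each tested gene, in NSM against DMSO on the left and DSF+NSM against DMSO on the right, for the 9 hosts (blue) and the other lists (grey); black lines are list medians and red dashes the median of all genes tested. The median of the 9 hosts is 1.20 and 1.82, that of the other noncoding hosts 0.08 and 0.60, and that of the snoRNA-binding proteins -0.70 and -0.46.

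Genes with a pattern most like that of the 9 hosts were found by Pearson r over the 12 libraries between log2(normalized count + 1) and the mean of the 9 scaled host profiles. The 5 nearest genes that were not hosts of the list were LINC00493 (r = 0.986), ANKRD10 (0.982), RPS27A (0.982), MRPL48 (0.980) and RPL39 (0.978). RPS27A and RPL39 encode ribosomal proteins, and RPS27A had 20616 ± 1666 normalized counts (SD, n = 3) in DMSO and 19206 ± 1492 in DSF, against 30177 ± 1998 in NSM and 33110 ± 3303 in the combination. The hosts themselves, which are part of the mean, had r from 0.929 for SNHG7 to 0.977 for SNHG5 among the 7 that rose, and 0.510 for SNHG15 and 0.439 for SNHG16. The 12 libraries share 4 treatments, so these r values describe a shared order of the groups. With equal sums RPS27A was at 0.28 in NSM and -0.10 in DSF+NSM against DMSO, in place of 0.55 and 0.68.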

How the data were processed

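Polyadenylated RNA of SHI-1 cells was measured in 12 libraries, 3 per group. The authors deposited normalized counts per gene (signal values scaled by DESeq2, with no raw counts); the header of each file names 24 libraries, of which 12 were analysed here. The study's methods name STAR and Salmon, the submitters' processing notes name bcl2fastq 2.19, Trimmomatic, Bowtie2, Picard, featureCounts and DESeq2 with hg38, and this conflict was not resolved. Whether counting used the strand is not given in the sources used here. The values did not come out as whole reads (32.4 to 34.5% within 0.01 of a whole step), so no count model was used; depth was estimated as the sum divided by the smallest value that recurred often, and intervals for counts were not given.

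Values were tested as log2(value + 1) with limma 3.58.1 (trend, robust) in R 4.3.3 in one fit of all 12 libraries, two-sided, over genes at 10 or more in at least 3 libraries, with Benjamini-Hochberg adjustment over 13502 genes and a threshold of 0.05; the procedure was first tested on simulated data. A fold change on this scale understates the change of low genes. The members and the gene lists were chosen with earlier results of these data known. All members were named; from each other list the 3 genes most changed in DSF+NSM against DMSO among those whose mean reached 50, the tested neighbours that share exon bases or start within 1000 bases (not every one is reported here), and the 5 genes most like the members. The snoRNAs shown and the start tract were chosen after values had been seen. Sequences and positions came from RefSeq and GENCODE 44 on GRCh38. Levels were not compared between genes per length, since the annotated canonical transcripts differ from the RefSeq spans. Other scalings, pseudocounts, filters, a replicate block, fits of the compared groups alone and leaving out each library were the alternatives.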

Additional observations from a re-analysis of the deposited data

How the results depend on the processing

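With 3 libraries per group from one cell line, and values that keep no raw counts, the precision is limited by the number of libraries. The number of hosts called in NSM and DSF+NSM against DMSO, NSM against DSF and DSF+NSM against DSF stayed within 1.5 times the reported one under every alternative run; 135 of the alternative counts did so in all. The counts that did not were those for DSF against DMSO, which was 6 when only the compared groups were fitted and 0 to 6 with a library left out (0 if DMSO replicate 1, DMSO replicate 2, DSF replicate 1 or DSF replicate 2 was left out, 6 without NSM replicate 3), for DSF+NSM against NSM, which was 2 with equal sums, 2 with equal sums after leaving out ribosomal RNA genes (an alternative added after seeing the data), 0 with only the compared groups and 1 to 6 with a library left out (1 without DSF+NSM replicate 1 or 2), and for the interaction, which was 1 under the median of ratios, 1 under the trimmed mean, and 0 to 1 with a library left out. When only DSF and DMSO were fitted, 3988 genes were called higher and 3301 lower, in place of 1601 and 804; for DSF+NSM against NSM the same kind of fit called 1465 and 1008 in place of 2736 and 2476. With the replicate number as a block the interaction count was 1, SNHG5, and the count for DSF+NSM against NSM was 5 higher and none lower. Whether the replicate numbers pair the libraries was not settled. Over 18 same-number pairs the correlation of deviations ran from -0.06 to 0.28, with 2 over 0.1. The largest of them joined NSM replicate 3 and DSF+NSM replicate 3, and 6 of 12 libraries correlated best with their own number.

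Equal sums, and equal sums without ribosomal RNA genes, turned the sign of some values, of which SNHG16 in DSF+NSM against DSF then passed the threshold as lower with equal sums; in each pair the second value leaves out those genes. The interaction became -0.13 and -0.086 for GAS5, -0.11 and -0.063 for SNHG1, -0.21 and -0.17 for SNHG12, -0.11 and -0.064 for SNHG15, -0.25 and -0.21 for SNHG16, -0.13 and -0.086 for SNHG8, and -0.23 and -0.19 for ZFAS1. DSF+NSM against NSM became -0.28 and -0.21 for SNHG1, -0.48 and -0.40 for SNHG15, and -0.095 and -0.020 for ZFAS1. DSF+NSM against DSF became -0.33 and -0.28 for SNHG15 and -0.37 and -0.32 for SNHG16, NSM against DMSO -0.22 and -0.22 for SNHG15 and -0.12 and -0.12 for SNHG16, and DSF+NSM against DMSO -0.70 and -0.62 for SNHG15. These scalings lower all genes of the drug groups together, since their sums were larger. With a library left out, the values that changed sign ran from -0.26 to 0.61 for SNHG15 in NSM against DMSO, -0.065 to 0.31 in DSF+NSM against DMSO, -0.52 to 0.34 in DSF+NSM against NSM and -0.25 to 0.62 in the interaction, and the others were SNHG12 in the interaction (-0.15 to 0.42), SNHG5 in DSF against DMSO (-0.25 to 0.026) and SNHG8 in DSF+NSM against NSM (-0.10 to 0.017). Over all alternatives 1262 single-host values kept their direction and side of the threshold, 38 lost a call, 35 gained one and 42 changed sign.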

Other observations

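Long noncoding RNAs that are not snoRNA hosts showed another pattern. Of 22 tested, 4 rose and 10 fell in NSM (median log2 fold change -0.23), and 11 rose and 8 fell in DSF+NSM (median 0.41). Of all tested genes 25.4% were called higher and 23.7% lower in NSM, and 28.3% and 24.5% in DSF+NSM. MALAT1, an abundant nuclear RNA, rose by 1.46 in DSF and 1.22 in NSM, and by 3.87 in the combination (limma adjusted p = 4.75e-08 for the last). NEAT1, the scaffold of paraspeckles, rose by 0.86 in DSF, fell by 0.73 in NSM and rose by 2.84 in DSF+NSM (limma adjusted p = 1.01e-06). KCNQ1OT1, an imprinted antisense RNA, had -0.66 in DSF and -0.20 in NSM, neither called, and rose by 2.29 in DSF+NSM (limma adjusted p = 1.88e-05). In the interaction 10 of these 22 RNAs were called higher and none lower, with a median of 1.04. Of all tested genes 12.1% were called higher and 14.0% lower there. For the snoRNA hosts it was none of 9 and a median of 0.29, and the difference between the lists was not tested. With equal sums 4 of the 22 were higher and 1 lower in the interaction (median 0.62), where 916 of 13502 genes were called higher and 3868 lower. Without NSM replicate 3 the counts were 13 and none. That fit called more genes in general, 2900 higher and 3275 lower in place of 1632 and 1895. With the libraries scaled to equal sums 1 of the 22 rose and 12 fell in NSM, where 16.4% of all tested genes were called higher and 33.4% lower. In DSF+NSM 6 rose and 10 fell, where 11.4% of all genes were called higher and 56.2% lower. MALAT1, NEAT1 and KCNQ1OT1 were still called higher in DSF+NSM. Without NSM replicate 3 NEAT1 was not called in NSM (-0.51, limma adjusted p = 0.0518) and KCNQ1OT1 was called lower in DSF (-0.66, limma adjusted p = 0.0301).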
